A study of Mus musculus with 4 samples.

Results

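The matricellular and repair-linked secreted genes Comp, Postn, Cthrc1, Tnc, Thbs1, Thbs4, Spp1, Ltbp2, Tgfb1 and Timp1 were examined in hearts of Mst1/2-deficient (KO) and wild-type (WT) C57BL/6 mice. These 10 genes were chosen by name, with earlier results of the same data known, out of 29245 gene columns, and all 10 were measured. Each group held 2 animals, named KO1, KO2, WT1 and WT2 in the deposited well reports. Hearts had been dispersed and slow spins had parted a cardiomyocyte (CM) from a non-cardiomyocyte (NCM) suspension. Polyadenylated RNA was then sequenced from barcoded wells of 4 chips, each holding both animals of a genotype in 1 fraction. The labels name no injury, no treatment, no age and no sex, and they do not say which cells or exons were targeted. Whether the animals carried other alleles is likewise not stated. Genotype therefore cannot be told apart from chip in either fraction, and the p-values rest on 2 animals per genotype.

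Matricellular proteins are secreted into the matrix but serve less as building blocks than as signals: they bind collagen, integrins, growth factors and proteases. Adult myocardium holds little of most of them, and after injury fibroblasts and macrophages make them in quantity. MST1 and MST2 are kinases of the Hippo pathway, which holds back YAP and TAZ, and these co-activators reach DNA through TEAD factors.

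Upstream sequences of 7 of the genes were found in RefSeq (GRCm38.p6), with 10 start sites in all; Comp, Cthrc1 and Thbs1 had no entry. The windows of 3 genes are shown because Spp1 is the macrophage-weighted gene of the set, Postn the fibroblast-weighted one, and Timp1 one of the genes holding the TEAD letters. Each line gives the 250 bases before an annotated start, with motif matches in capitals. The Spp1 window is chr5:104434861-104435110 (plus strand), the Postn window chr3:54360857-54361106 (plus strand) and the Timp1 window chrX:20869916-20870165 (plus strand). Spp1 and Postn each have another annotated start, and those windows, not shown, held no motif match.
Spp1: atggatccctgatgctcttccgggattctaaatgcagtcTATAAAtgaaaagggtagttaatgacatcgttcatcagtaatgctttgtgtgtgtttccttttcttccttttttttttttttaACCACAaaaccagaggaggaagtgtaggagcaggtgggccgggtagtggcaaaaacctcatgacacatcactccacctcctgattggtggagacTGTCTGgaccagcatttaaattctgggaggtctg
Postn: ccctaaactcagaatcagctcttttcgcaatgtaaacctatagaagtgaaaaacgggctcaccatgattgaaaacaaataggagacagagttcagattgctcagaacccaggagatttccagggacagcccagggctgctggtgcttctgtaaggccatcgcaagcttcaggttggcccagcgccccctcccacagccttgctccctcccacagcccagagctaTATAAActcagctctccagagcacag
Timp1: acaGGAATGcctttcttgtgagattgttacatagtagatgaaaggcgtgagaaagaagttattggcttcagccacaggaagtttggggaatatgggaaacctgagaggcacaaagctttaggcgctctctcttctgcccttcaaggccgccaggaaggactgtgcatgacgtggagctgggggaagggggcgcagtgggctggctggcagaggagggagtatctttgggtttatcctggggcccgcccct
The capitals mark TATAAA, the TATA box letters, at 211 bases before the Spp1 start and at 26 bases before the Postn start. In Spp1 they also mark the reverse complements of TGTGGT (RUNX) and CAGACA (SMAD), and in Timp1 they mark GGAATG (TEAD). Both strands were searched for these and for TGANTCA (AP-1), and no match of one motif overlapped a match of another in these 3 windows. GGAATG lay in 2 of the 10 start sites (Thbs4 and Timp1), against 12.6% of 32851 mouse promoters of the same length. CAGACA lay in 3 (Spp1, Thbs4 and Tnc) against 17.1%, TGTGGT in 1 (Spp1) against 14.0%, and TATAAA in 4 (Postn, Spp1 and both Tnc sites) against 12.4%. The Tnc windows overlap, and their TATAAA is the same stretch of the genome, counted once at each start. TGANTCA lay in 0, against 6.75%. A match describes letters in this window and is neither a site nor a cause.

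The values were counts of unique molecular identifiers (UMIs), and 3990 of 4275 wells passed 10000 UMIs and 300 genes. Mitochondrial and haemoglobin RNA took different parts of the wells, so levels are UMIs per 1000000 UMIs outside mt-, Hba- and Hbb- genes, written CPM. In NCM wells, the median mitochondrial share was 64.6% (KO1) and 43.7% (KO2), against 9.03% (WT1) and 14.1% (WT2). The median number of UMIs outside those genes was 24379 and 43941 in the KO animals and 53343 and 62963 in the WT animals. CM wells had median mitochondrial shares of 54.5% and 35.6% in KO against 33.0% and 33.2% in WT. The part of these gaps in the results below was not tested, except where values under a mitochondrial limit are given. Of 3017 barcodes with a kept well, 856 occurred on more than 1 chip, so wells are named by chip and barcode. Stk4 (MST1) stood at 45.8 and 37.5 CPM in NCM wells of KO1 and KO2, against 53.1 and 47.3 in WT1 and WT2. Stk3 (MST2) stood at 29.0 and 26.3 in KO against 23.5 and 38.6 in WT. Because the deleted part of either gene is not stated, these counts do not check the deletion.

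Wells were clustered without the 10 genes and named from marker genes. Fibroblast markers (11 genes such as Col1a1 and Dcn) made up 3.46% and 3.02% of these UMIs in fibroblast-like NCM wells of KO, and 3.63% and 4.06% in WT. Macrophage markers (10 genes) made up 1.71% and 1.84% in macrophage-like wells of KO and 2.80% and 3.03% in WT. Each animal gave 105 to 140 fibroblast-like, 58 to 280 endothelial-like, 40 to 105 macrophage-like and 17 to 77 neutrophil-like NCM wells. Clusters 0, 1 and 5 stayed unnamed; cluster 1, led by red cell genes such as Alas2, held 62 (KO1) and 308 (KO2) NCM wells against 8 (WT1) and 7 (WT2). In sums over wells, fewer expressing cells and less RNA per cell cannot be told apart. Classes were built from these wells, so class levels are described without a test.

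Periostin, encoded by Postn, crosslinks collagen and marks activated cardiac fibroblasts. Postn lies on mm10 chromosome 3 from 54361109 to 54391037, on the plus strand. Its level in NCM wells was 812 CPM in KO1 and 963 in KO2, against 737 in WT1 and 297 in WT2. Both KO animals lay above both WT animals, although WT1 was close to KO1. The mean difference was log2 0.63 (SE 0.41) and did not pass (edgeR quasi-likelihood test, adjusted p = 0.565). It was 0.13 without WT2 and 1.3996 without WT1. Fibroblast-like wells held 62.8% and 58.3% of all NCM Postn UMIs in KO and 77.4% and 65.0% in WT. Within that class the level was 2086 and 2047 CPM in KO1 and KO2, against 1370 in WT1 and 681 in WT2. There the groups did not overlap, with log2 0.84 (SE 0.31), and the difference again did not pass (edgeR adjusted p = 0.466). The sum rested on part of the wells: the median fibroblast-like well had 254 (KO1) and 1014 (KO2) CPM, against 610 (WT1) and 32.0 (WT2), and these medians overlapped. KO1 also differed with the mitochondrial share, at 2498 in 52 fibroblast-like wells below 50% and 865 in 53 wells at or above it. With wells below that limit alone, the class difference was log2 1.01 and still did not pass.

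Postn was also counted outside the fibroblast-like class. Endothelial-like wells held 328 and 522 CPM in KO against 134 and 169 in WT, again without overlap (log2 1.34, SE 0.40, unadjusted p = 0.0120, edgeR adjusted p = 0.502). The share of wells with a Postn UMI after thinning was 47.4% and 60.9% in endothelial-like wells of KO against 29.3% and 25.2% in those of WT. In neutrophil-like wells, a class that should lack periostin, it was 34.3% and 31.3% in KO against 42.9% and 19.4% in WT. The endothelial-like share thus lay above this background in KO1, KO2 and WT2 and below it in WT1. In fibroblast-like wells it was 61.0% and 79.7% in KO against 67.9% and 38.8% in WT, above the neutrophil-like share in all 4 animals. Fibroblast markers made up 0.505% and 0.737% of UMIs in endothelial-like wells of KO and 0.455% and 0.277% in WT, with 0 of 11 at zero, and their part in the Postn level was not tested. Before thinning, endothelial-like wells had median depths of 26031 and 41221 UMIs in KO and 43186 and 53793 in WT.

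Cthrc1, on chromosome 15 from 39076932 to 39087121 (plus strand), encodes a secreted protein of activated fibroblasts that is known to limit collagen deposition. Its NCM level was 148 and 223 CPM in KO, against 343 and 160 in WT, and the groups overlapped. In fibroblast-like wells it stood at 359 and 429 in KO against 652 and 404 in WT. Set against Postn in the same wells, Cthrc1 gave 0.172 (KO1) and 0.209 (KO2) UMIs per Postn UMI, against 0.476 (WT1) and 0.593 (WT2). Both ratios of KO animals thus lay below both of WT animals in this class. Timp1 had the same order there, at 1.58 and 1.24 UMIs per Postn UMI in KO against 2.04 and 3.61 in WT. The Cthrc1 ratios overlapped in endothelial-like wells (0.204 and 0.243 in KO against 0.799 and 0.227 in WT) and in macrophage-like wells (0.257 and 0.275 in KO against 0.306 and 0.208 in WT). The Cthrc1 ratio was picked out after its values were seen and was given no test. The fitted differences of Cthrc1 were log2 −0.57 (SE 0.41) in NCM wells and −0.60 (SE 0.30) in fibroblast-like wells (edgeR adjusted p = 0.600 and 0.547).

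Tenascin C, an anti-adhesive glycoprotein laid down at wound borders, is encoded by Tnc on chromosome 4 from 63959785 to 64047015 (minus strand). NCM wells held 105 and 146 CPM of Tnc in KO, against 67.2 and 39.0 in WT. The groups did not overlap. The difference was log2 1.10 (SE 0.36), with an unadjusted p of 0.0216 and an edgeR adjusted p of 0.367. The share of NCM wells with a Tnc UMI, after every well was thinned to 5000 UMIs, was 18.7% and 25.7% in KO against 11.6% and 6.55% in WT. An exact permutation test over the 4 animals gave p = 0.333, the smallest this design allows. Fibroblast-like wells stood at 200 and 177 CPM in KO against 111 and 93.4 in WT (log2 0.69, SE 0.30, edgeR adjusted p = 0.515). Macrophage-like wells held far less, at 56.0 and 31.7 in KO against 5.89 and 1.77 in WT, from 150 and 227 UMIs in KO and 108 and 47 in WT. That difference, log2 3.42 (SE 0.97), did not pass (edgeR adjusted p = 0.504), but DESeq2 called it at an adjusted p of 0.0102. Over all settings its adjusted p ran from 0.0102 to 1.000. The thinned share of macrophage-like wells with a Tnc UMI was 17.5% and 17.8% in KO against 4.76% and 2.06% in WT. In neutrophil-like wells it was 22.9% and 31.3% in KO against 6.49% and 0.0% in WT. The 0.0% came from 36 wells, where 3 positive wells would make 8.33%, and no exact interval was computed for it. The macrophage-like share lay below the neutrophil-like one in KO1, KO2 and WT1. In fibroblast-like wells the share was 21.9% and 33.3% in KO against 14.3% and 14.0% in WT, below the neutrophil-like share in KO1 only. The share over all NCM wells lay below the neutrophil-like one in KO1 and KO2. Whether Tnc in any of these wells was expression or background was not tested. Before thinning, macrophage-like wells had median depths of 57745 and 93044 UMIs in KO and 104201 and 204153 in WT. The neutrophil-like Tnc level had the same order, at 88.3 and 808 CPM in KO against 10.4 and 1.99 in WT, with 87.7% of the UMIs of KO2 in 1 well. The effect in fibroblast-like minus that in macrophage-like wells was −2.84 (SE 0.80, unadjusted p = 0.00853), which did not pass (edgeR adjusted p = 0.989). A single well held 87.7% of the Tnc UMIs of the neutrophil-like wells of KO2.

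**Figure D1:**
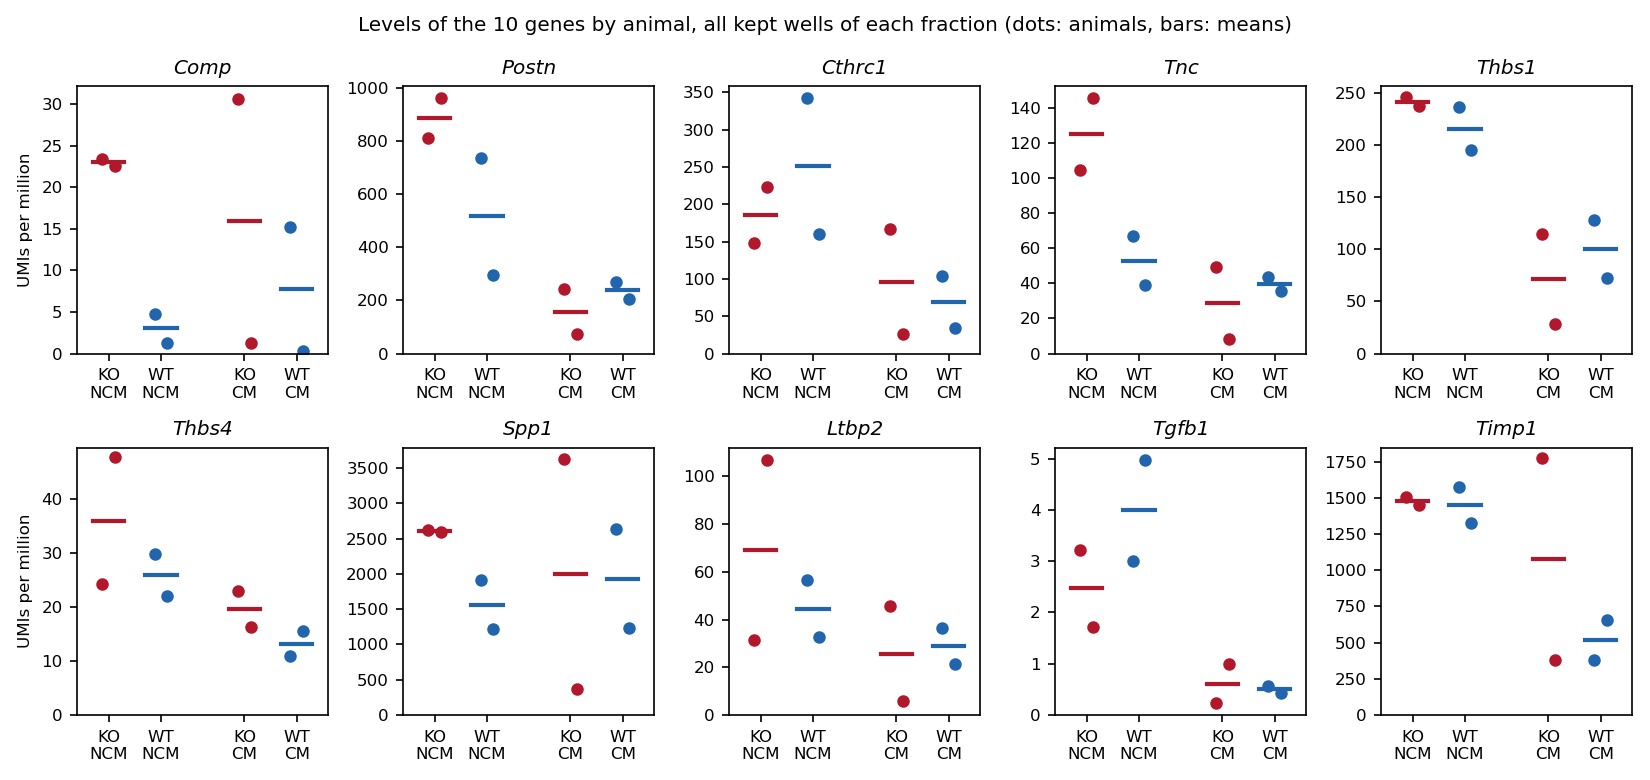
Levels of the 10 genes in CPM, counted outside mitochondrial and haemoglobin genes (vertical axes, linear and starting at 0) for KO and WT in NCM and CM wells; dots are animals and bars are means of 2. Comp, Postn, Tnc, Thbs1 and Spp1 show both KO dots above both WT dots in NCM wells, while KO1 and KO2 lie far apart in CM wells. For Thbs1 in NCM wells, KO2 (237) and WT1 (236) nearly coincide.

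The thrombospondin family is represented by Comp, Thbs1 and Thbs4. Comp encodes cartilage oligomeric matrix protein, also called thrombospondin 5, which binds collagen and TGF-beta. It lies on chromosome 8 from 70373558 to 70382066 (plus strand). In NCM wells Comp stood at 23.5 and 22.6 CPM in KO against 4.80 and 1.32 in WT. The KO animals were close to each other and well apart from WT, and the log2 difference of 2.76 (SE 0.70) was the largest of the 10 in NCM wells. It had an unadjusted p of 0.00670 and an edgeR adjusted p of 0.339, so it did not pass. The log2 difference was 2.12 without WT2, 3.93 without WT1, 1.99 without the unnamed clusters and 1.69 after thinning. DESeq2 called it (adjusted p = 0.00114), as did edgeR without a filter on low counts (adjusted p = 0.0352), and the range over all settings was 0.00114 to 0.691.

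Few wells carried that level. Comp UMIs numbered 621 and 1222 in KO and 407 and 124 in WT, in 38 of 715 and 79 of 747 wells of KO and 31 of 692 and 19 of 703 wells of WT. The top well alone held 269 (KO1) and 634 (KO2) UMIs, against 253 (WT1) and 71 (WT2). These wells made up 43.3% and 51.9% of all Comp UMIs in KO and 62.2% and 57.3% in WT. Wells with at least 20 Comp UMIs numbered 7 and 8 in KO and 3 and 2 in WT. When the highest well of each gene was left out, the log2 difference was 3.24, so it did not rest on those wells alone. The share of positive wells was 5.31% (95% interval 3.79 to 7.22, Clopper-Pearson) in KO1 and 10.6% (8.46 to 13.0) in KO2, against 4.48% (3.06 to 6.30) in WT1 and 2.70% (1.63 to 4.19) in WT2. KO1 and WT1 were within each other's intervals, which cover counting error only. Cluster 1 held 991 of the 1222 Comp UMIs of KO2, with 634 of them in 1 well. In endocardial-like wells, all 269 UMIs of KO1 came from 1 well, and 98.4% of the 257 UMIs of WT1 came from another. The fibroblast-like level was 21.5 and 6.95 in KO against 2.75 and 2.75 in WT.

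**Figure D2:**
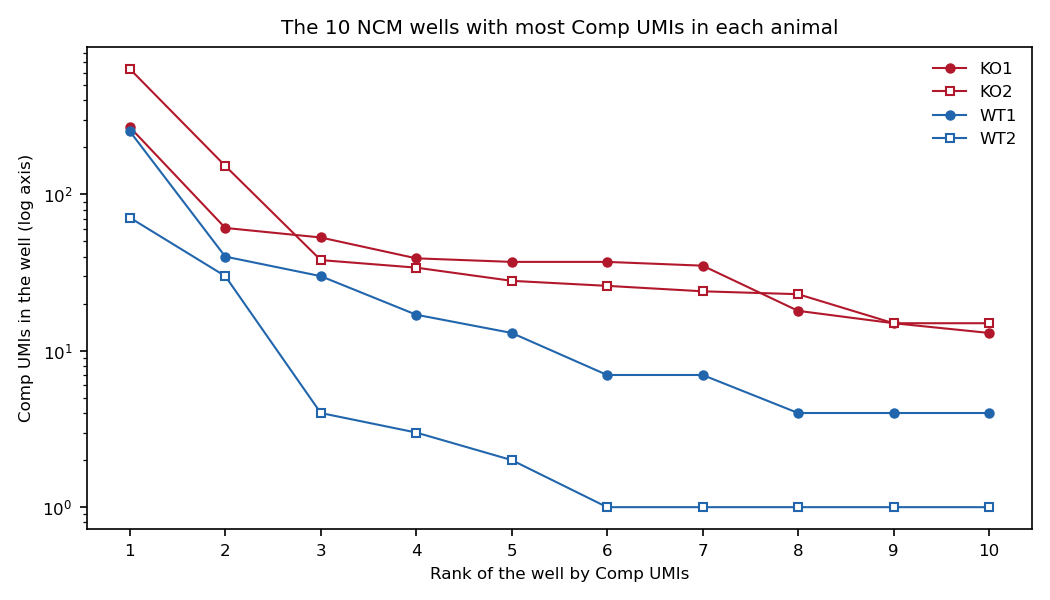
The 10 NCM wells with most Comp UMIs in each animal, ranked on the horizontal axis, with UMIs per well on a log axis. KO1 and KO2 run from 269 and 634 UMIs at rank 1 and keep at least 20 UMIs in 7 and 8 wells, against 3 and 2 wells in WT1 and WT2.

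Thbs1, on chromosome 2 from 118111876 to 118127133 (plus strand), encodes thrombospondin 1, which activates latent TGF-beta and restrains vessel growth. Summed over NCM wells it was level: 246 and 237 CPM in KO against 236 and 195 in WT. The medians of single wells were 36.9 and 38.6 in KO and 18.1 and 12.1 in WT. The fitted log2 difference was 0.0019 (SE 0.21; edgeR adjusted p = 0.998). By class the picture was not even. Fibroblast-like wells held 290 and 201 in KO against 65.1 and 136 in WT, and endothelial-like wells 157 and 144 in KO against 39.6 and 73.7 in WT. Summed macrophage-like wells held 259 and 284 in KO against 479 and 323 in WT, the other way round. That order held for the sums and not for the typical well: the median macrophage-like well had 50.5 and 116 CPM in KO against 34.8 and 26.0 in WT. The share of macrophage-like wells with a Thbs1 UMI after thinning was 40.0% and 48.9% in KO against 48.6% and 35.1% in WT, so the groups overlapped. In neutrophil-like wells it was 37.1% and 25.0% in KO against 29.9% and 13.9% in WT. Endothelial-like wells, at 31.0% and 23.2% against 12.1% and 17.8%, lay below these shares in KO1, KO2 and WT1. Fibroblast-like wells, at 36.2% and 43.1% against 26.4% and 31.4%, lay below them in KO1 and WT1. Whether Thbs1 in those classes was expression or background was not tested. The top well gave 18.6% and 15.7% of the macrophage-like UMIs in KO and 18.3% and 31.0% in WT, and without each gene's highest well the class difference was −0.16. Macrophage-like wells supplied 10.7% and 15.9% of NCM Thbs1 UMIs in KO and 43.8% and 46.9% in WT. The class differences were log2 1.07 (SE 0.44), 1.24 (SE 0.50) and −0.61 (SE 0.40) in the same order of classes (edgeR adjusted p = 0.486, 0.539 and 0.702). WT1 held a small group of 19 NCM wells at or above 50% mitochondrial UMIs with 4145 Thbs1 CPM.

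Thbs4, on chromosome 13 from 92751590 to 92794818 (minus strand), encodes thrombospondin 4, a matrix and endoplasmic reticulum protein of stressed muscle and heart. Its NCM level was 24.2 and 47.7 CPM in KO against 29.8 and 22.0 in WT, with overlap. Between 41.2% and 77.8% of an animal's Thbs4 UMIs came from 1 well. Endothelial-like wells stood at 4.81 and 26.3 in KO against 0.435 and 2.96 in WT, from 45 and 236 UMIs in KO and 2 and 44 in WT. There 1 well held 66.5% of the UMIs of KO2, and 1 well held 68.2% of those of WT2. In macrophage-like wells the values were 25.8 and 6.99 in KO against 1.09 and 1.05 in WT, from 69 and 50 UMIs in KO and 20 and 28 in WT. There 1 well held 91.3% of the UMIs of KO1, and 1 well held 48.0% of those of KO2. The share of these wells with a Thbs4 UMI was 12.5% and 13.3% in KO against 13.3% and 15.5% in WT. After thinning it was 7.5% and 2.22% in KO against 0.0% and 0.0% in WT. That macrophage-like difference was log2 3.74 (SE 1.33) and 2.33 without each gene's highest well. It did not pass (edgeR adjusted p = 0.504), and DESeq2 called it (adjusted p = 0.0423, with a range of 0.0423 to 1.000 over settings). Cardiomyocyte-like CM wells held 22.9 and 16.3 in KO against 17.98 and 15.5 in WT.

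Osteopontin, the product of Spp1, is a secreted cytokine-like phosphoprotein that binds integrins and CD44 and is made by repair macrophages. Spp1 lies on chromosome 5 from 104435118 to 104441050 (plus strand). NCM wells held 2627 and 2597 CPM in KO, against 1910 and 1213 in WT. The KO animals were nearly equal and both above WT, by log2 0.59 (SE 0.25; edgeR adjusted p = 0.417), or 0.31 without WT2 and 0.92 without WT1. Macrophage-like wells stood highest, at 9043 and 8289 in KO against 6127 and 3087 in WT (log2 0.85, SE 0.35, edgeR adjusted p = 0.544). They supplied 34.8% and 42.3% of NCM Spp1 UMIs in KO and 69.4% and 72.2% in WT. Medians over macrophage-like wells were 5569 (KO1) and 1658 (KO2), against 1443 (WT1) and 200 (WT2).

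Other classes also carried Spp1. Fibroblast-like wells held 1067 and 1678 CPM in KO against 402 and 453 in WT, and endothelial-like wells 1844 and 1637 in KO against 644 and 500 in WT. The differences were log2 1.50 (SE 0.31) and 1.44 (SE 0.26), with unadjusted p values of 0.00174 and 0.000928 and edgeR adjusted p values of 0.428 and 0.502. Neither passed. Without a filter on low counts edgeR called both (adjusted p = 0.000202 and 0.00232), and DESeq2 called the fibroblast-like one (adjusted p = 0.00539). Over all settings the adjusted p ran from 0.000202 to 0.568 in fibroblast-like wells and from 0.00232 to 0.693 in endothelial-like wells.

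Spp1 was found in nearly every well: 99.6% and 99.3% of NCM wells in KO against 97.5% and 94.2% in WT. After thinning to 5000 UMIs the shares were 94.7% and 93.1% in KO against 72.4% and 57.1% in WT. Neutrophil-like wells, a class not known as a main source, gave 94.3% and 93.8% in KO against 74.0% and 55.6% in WT, before thinning at median depths of 30215 and 49692 UMIs in KO and 48806 and 57523 in WT. Fibroblast-like wells, at 90.5% and 90.2% in KO against 52.1% and 45.5% in WT, lay below these shares, and endothelial-like wells, at 93.4% and 91.4% in KO against 74.1% and 54.0% in WT, lay at about the same. Fibroblast-like wells had median depths of 41206 and 78838 UMIs in KO and 175858 and 128810 in WT. Whether Spp1 in fibroblast-like and endothelial-like wells was expression or background was not tested. Macrophage-like wells gave 97.5% and 91.1% in KO against 80.0% and 63.9% in WT, and the share of KO2 lay below the neutrophil-like one. Macrophage markers in fibroblast-like wells made up 0.155% and 0.182% of UMIs in KO and 0.141% and 0.0903% in WT, with 0 of the 10 markers at zero. Their part in the result was not tested. Negative control wells held 5 Spp1 UMIs in 4 of 20 wells.

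**Figure D3:**
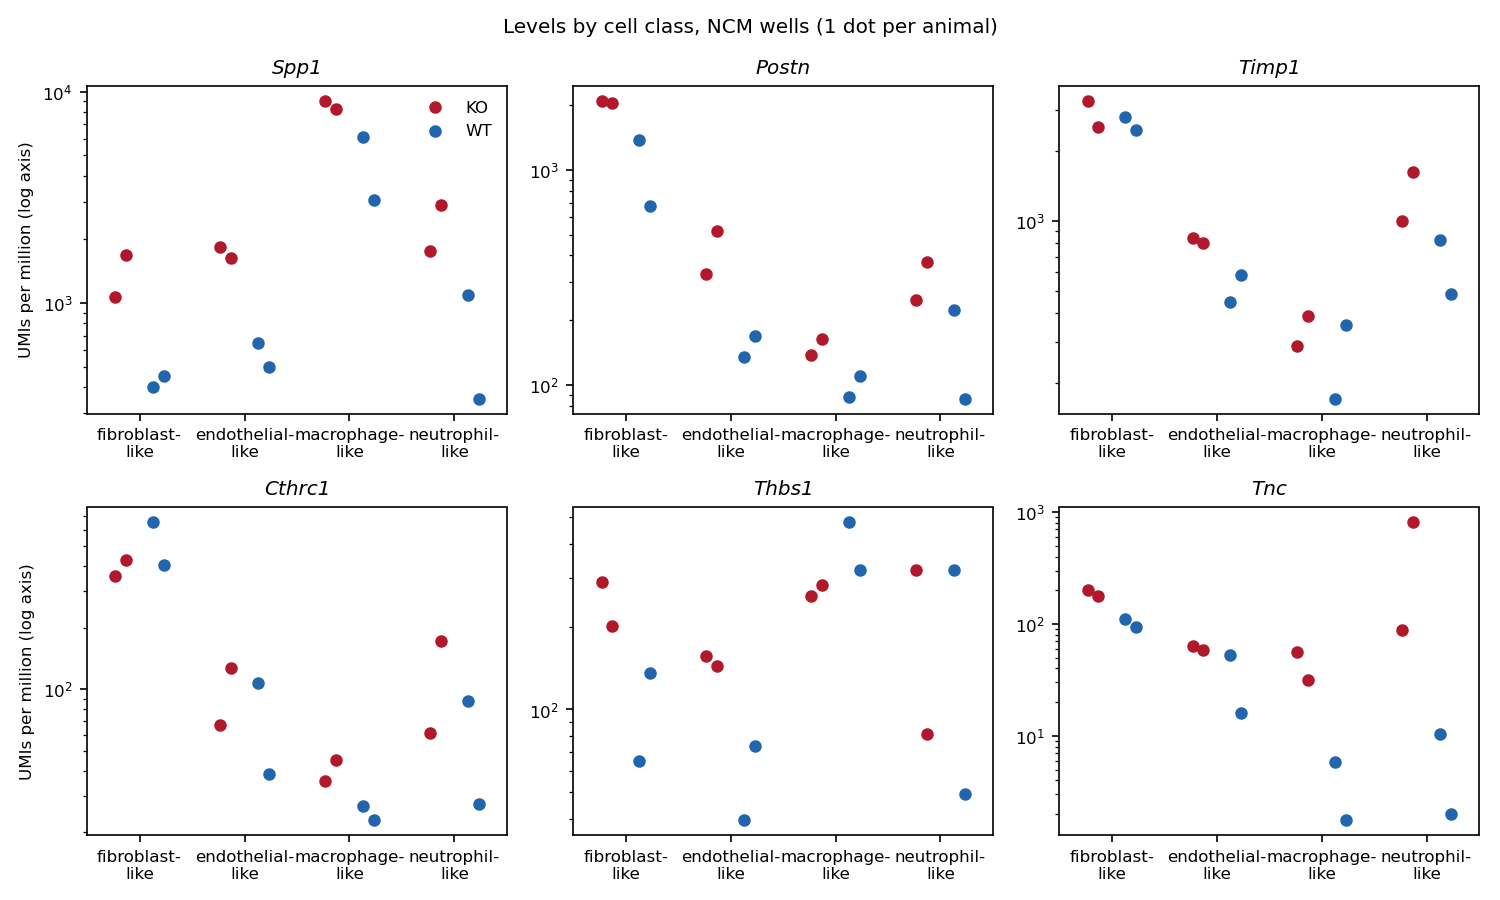
Levels of 6 of the genes in 4 NCM cell classes, in CPM on log axes; each dot is 1 animal, KO left of WT. Spp1 is highest in macrophage-like wells (3087 to 9043) and Postn, Timp1 and Cthrc1 in fibroblast-like wells; the KO and WT dots of Thbs1 change order between fibroblast-like and macrophage-like wells.

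Tgfb1 and Ltbp2 belong to the TGF-beta system. Tgfb1, on chromosome 7 from 25687002 to 25705077 (plus strand), encodes the cytokine that drives fibroblasts towards matrix production. It was close to the limit of detection: 3.21 and 1.72 CPM in NCM wells of KO against 3.01 and 4.98 in WT, from 85, 93, 255 and 467 UMIs in the order KO1, KO2, WT1, WT2. The groups overlapped. It was seen in 4.76% and 6.56% of wells in KO and 9.39% and 8.53% in WT, and thinning reduced the shares to 1.58% and 0.815% in KO and 1.73% and 1.99% in WT. The highest class level was 8.15 CPM in endothelial-like wells of WT2, where 97 of 121 UMIs (80.2%) came from 1 well, and those of WT1 stood at 0.653. At this depth no difference was detectable (log2 −0.88, SE 0.80, edgeR adjusted p = 0.685).

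Ltbp2, on chromosome 12 from 84783212 to 84876532 (minus strand), encodes a fibrillin-binding protein of elastic microfibrils which, unlike its relatives, does not bind latent TGF-beta. Its NCM level was 31.6 and 107 CPM in KO against 56.4 and 32.7 in WT, so KO2 stood apart and the groups overlapped. Fibroblast-like wells held 53.1% and 63.2% of its UMIs in KO and 80.6% and 69.1% in WT, at 68.6 and 246 CPM in KO against 109 and 79.6 in WT. Endothelial-like wells held 18.8 and 59.5 in KO against 3.05 and 2.96 in WT, a log2 difference of 3.58 (SE 1.08). One well gave 72.5% of the KO2 value, and without each gene's highest well the difference was 2.20. It did not pass (edgeR adjusted p = 0.502), while DESeq2 called it at an adjusted p of 0.0194 (0.0194 to 1.000 over settings). The effect in fibroblast-like minus that in endothelial-like wells was −3.005 (SE 0.67, unadjusted p = 0.00188, edgeR adjusted p = 0.483).

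Timp1, on the X chromosome from 20870166 to 20874735 (plus strand), encodes a secreted inhibitor of matrix metalloproteinases. NCM wells held 1507 and 1452 CPM in KO against 1573 and 1323 in WT, a difference smaller than the spread between WT animals (log2 −0.13, SE 0.19, edgeR adjusted p = 0.811; the sign turned to 0.03 with plain library totals). Fibroblast-like wells held 3287 and 2541 in KO against 2799 and 2457 in WT, and macrophage-like wells 290 and 388 in KO against 171 and 356 in WT. Endothelial-like wells stood at 844 and 805 in KO against 445 and 584 in WT, without overlap (log2 0.52, SE 0.28, edgeR adjusted p = 0.627). In the fibroblast-like wells of KO1, 49.0% of the Timp1 UMIs came from 1 well. CM wells of KO1 were high, at 1777, with 383 in KO2 and 379 and 657 in WT1 and WT2.

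Of the 10 genes, 4 share exon bases with another annotated gene. Timp1 lies inside an intron of Syn1 on the other strand and shares 0 exon bases with it. Tnc shares 176 exon bases with 8030451A03Rik and Ltbp2 shares 764 with D030025P21Rik, both on the opposite strand, and the 2 partners held 36 and 54 UMIs in all. Thbs1 shares 208 with Gm29233 on the opposite strand and Spp1 shares 309 with Gm42793 on the same strand, and both partners held 0 UMIs. The strand setting of the counting is not given in the sources used here, so reads from opposite strands cannot be told apart.

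Across NCM wells, 5 of the 10 genes had both KO animals above both WT animals (Comp, Postn, Tnc, Thbs1 and Spp1) and 0 had both below. Thbs1 was counted on a margin of 237 CPM in KO2 over 236 in WT1, and its summed level was described above as level. Among all 17216 tested genes these shares were 26.9% above and 18.3% below. In endothelial-like wells 8 of 10 were above and 0 below, against 25.6% and 15.6% of 12655 tested genes. Among the 8 were Postn, Ltbp2 and Spp1. Fibroblast markers made up 0.505% and 0.737% of UMIs in these wells of KO against 0.455% and 0.277% in WT. The thinned Spp1 share there was about that of neutrophil-like wells. Their part in this count was not tested. Fibroblast-like wells gave 5 above and 0 below, against 25.1% and 17.9% of 13963. Of the 9 genes tested in macrophage-like wells, 5 were above and 2 (Thbs1 and Tgfb1) below, against 18.4% and 21.8% of 12165. Among the 5 was Tnc, whose thinned share lay below the neutrophil-like one in KO1, KO2 and WT1. Comp was too low in macrophage-like wells to be tested. The median log2 differences of the genes were 0.43 in NCM, 0.66 in fibroblast-like, 1.29 in endothelial-like and 0.65 in macrophage-like wells, where all tested genes had medians of −0.01, 0.00, −0.01 and −0.02. Since the genes were named with these data known, the counts describe them and support nothing further.

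No gene of the genome passed an adjusted p of 0.05 in any of the 8 KO and WT comparisons with edgeR (0.0%). At an unadjusted p under 0.05 the NCM comparison had 2075 genes, of which 5.94% of tested genes were higher and 6.12% lower in KO; DESeq2 called 579. The unadjusted counts were 1375 (4.85% higher and 5.0% lower), 1140 (4.93% and 4.08%) and 1109 (4.48% and 4.64%) in fibroblast-like, endothelial-like and macrophage-like NCM wells, where DESeq2 called 362, 254 and 404. Of the 10 genes, 2 (Comp and Tnc) stood under that level in NCM wells, all in the higher direction, 3 in fibroblast-like, 4 in endothelial-like and 3 in macrophage-like wells. With plain library totals in place of TMM scaling, the median NCM log2 difference of all genes was 0.16 rather than −0.01.

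**Figure D4:**
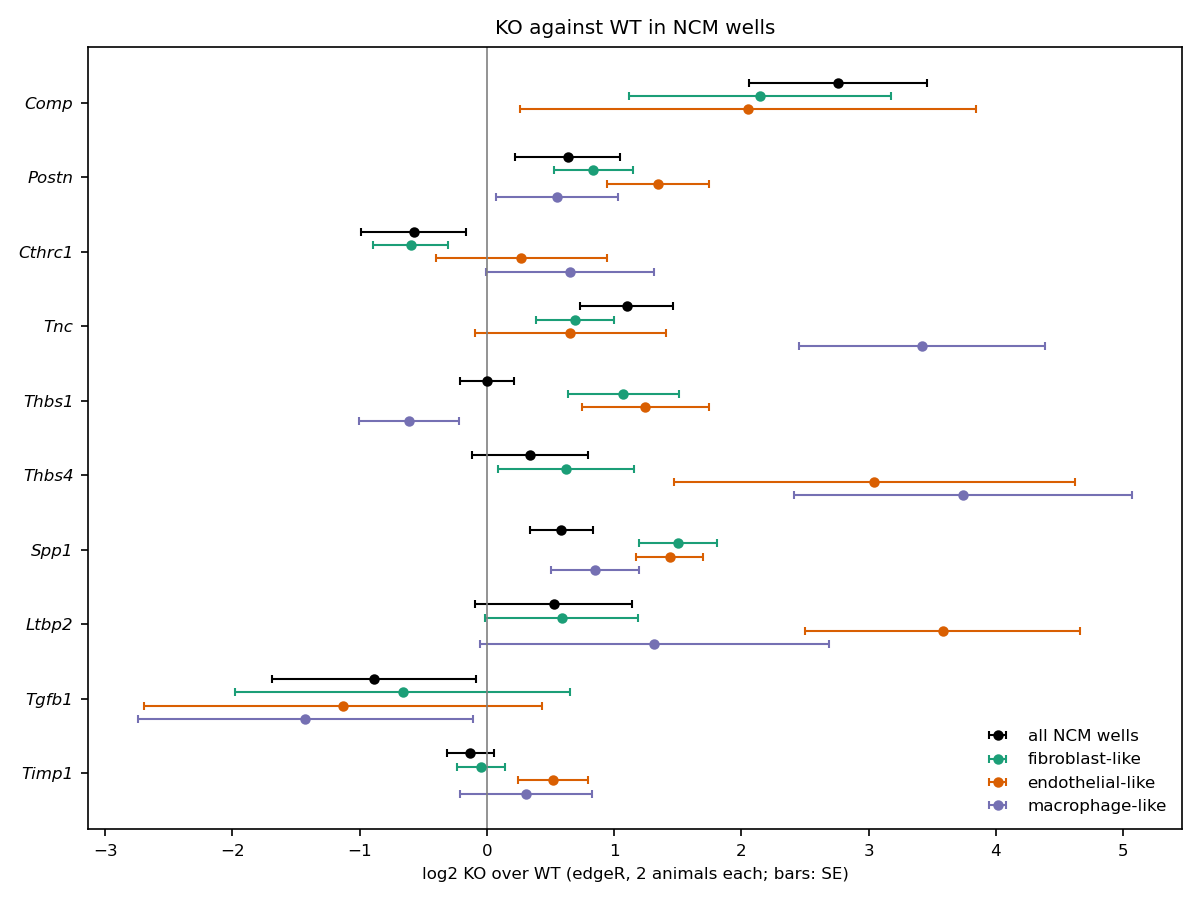
Log2 differences of KO over WT from edgeR with SE bars (2 animals each) for the 10 genes in all NCM wells and in 3 NCM classes. Spp1 is at 1.50 and 1.44 in fibroblast-like and endothelial-like wells, Thbs1 at 1.07 and −0.61 in fibroblast-like and macrophage-like wells, and no value passed the adjusted threshold.

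In the CM fraction KO1 lay well above KO2 for Comp, Postn, Spp1, Tnc and Cthrc1, and the groups overlapped for all 5. Comp stood at 30.7 and 1.31 CPM in KO1 and KO2 against 15.2 and 0.331 in WT1 and WT2. Postn stood at 242 and 73.7 in KO against 271 and 207 in WT, and Spp1 at 3630 and 367 in KO against 2633 and 1227 in WT. Tnc was 49.4 and 8.16 in KO against 43.4 and 35.9 in WT, and Cthrc1 was 166 and 25.9 in KO against 104 and 34.5 in WT. Only Thbs4 had both KO animals above both WT animals (23.0 and 16.3 in KO against 10.9 and 15.6 in WT), 1 of 10 against 15.8% of 14462 tested genes. None of the 10 had an unadjusted p under 0.05 with edgeR, and every adjusted p was 0.999. Over all genes 0 passed, while DESeq2 called 48; 498 genes, 1.87% higher and 1.58% lower of those tested, stood under an unadjusted p of 0.05. KO1 gave shallower CM wells, with a median of 26756 UMIs outside mitochondrial and haemoglobin genes against 126901 in KO2. Its part was not tested.

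Macrophage-like CM wells held Spp1 at 15903 CPM in KO1 and 3821 CPM in KO2, against 8264 and 8581 in WT. Fibroblast-like CM wells, 15 to 25 per animal, held 709 and 746 of Postn in KO against 1196 and 1366 in WT, the reverse of the order in fibroblast-like NCM wells. The same wells held 7112 and 4385 of Timp1 in KO against 1569 and 3733 in WT. Cardiomyocyte-like wells held 217 and 39.3 of Postn in KO against 138 and 32.5 in WT, so KO1 and WT1 lay above KO2 and WT2. The genotype effect on Postn in CM wells minus that in NCM wells was log2 −1.65 (SE 0.66, unadjusted p = 0.0394), and that on Tnc −2.15 (SE 0.90, unadjusted p = 0.0474). Neither difference passed (edgeR adjusted p = 0.951 for both). Of all 17509 genes, 2.23% had a higher and 2.72% a lower difference at that unadjusted level, and 0 passed the adjusted one.

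CM wells were then set against NCM wells of the same animals. Within a genotype each fraction was 1 chip, so fraction and chip cannot be told apart. Fibroblast-like wells numbered 15 to 25 per animal in the CM fraction and 105 to 140 in the NCM fraction. The part of this cell make-up in the differences was not tested. Postn stood at 242, 73.7, 271 and 207 CPM in CM wells of KO1, KO2, WT1 and WT2, against 812, 963, 737 and 297 in their NCM wells. All 4 animals were lower in CM wells, by log2 −1.31 (SE 0.43; edgeR adjusted p = 0.0766). Thbs1 was lower in CM wells in 4 of 4 animals too, at 115, 28.7, 128 and 72.3 against 246, 237, 236 and 195 (log2 −1.07, SE 0.32, edgeR adjusted p = 0.0560; 0.0199 to 0.177 over settings). Cthrc1 was lower in 3 of 4, since KO1 had 166 in CM and 148 in NCM wells (log2 −1.22, SE 0.43, edgeR adjusted p = 0.0944). Without KO1 edgeR called Cthrc1 (adjusted p = 0.00788; 0.00788 to 0.321 over settings) and Timp1 (0.0361; 0.0361 to 0.671), and without WT2 it called Postn (0.0318; 0.0272 to 0.229). Plain library totals made calls of Thbs1 (0.0199), Postn (0.0272) and Cthrc1 (0.0347), and the fit with no animal block a call of Postn (0.0416). Spp1 was near 0 at log2 0.14 (SE 0.48). In all, 0 of the 10 passed, against 8.33% of 17509 genes higher and 5.92% lower in CM wells. Under plain library totals 1068 genes were higher and 2895 lower, against 1459 and 1037 with TMM scaling, and the median of all genes was −0.81 rather than −0.28.

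Around these genes, 5 companion lists were read in the same fits; they too were drawn up with earlier results known. Of 29 other matricellular and small matrix proteins, 18 were lower and 0 higher in CM than in NCM wells, with a median log2 of −1.78 where all tested genes had −0.28. The largest were Thbs3 (−3.53), Tnxb (−3.53), Ccn5 (−3.42), Cilp (−3.08), Fbln5 (−2.89) and Dcn, the collagen-binding proteoglycan decorin (−2.82). Of 26 proteases and inhibitors, 15 were lower and 0 higher, among them the gelatinases Mmp2 (−2.87) and Mmp9 (−2.52), the inhibitors A2m (−6.36) and Reck (−2.36), Mmp19 (−2.51) and the stromelysin Mmp3 (−2.02). Among 26 activated fibroblast genes 11 were lower and 0 higher, with Tcf21 (−3.08), a fibroblast transcription factor, and the microfibril gene Mfap4 (−2.84) at the front, then Mfap5 (−1.90), the PDGF receptor gene Pdgfra (−1.79), Runx1 (−1.72) and the collagen crosslinker Loxl1 (−1.70). The TGF-beta system had 4 of 23 lower, Ltbp4 (−2.10), Skil (−1.48), Acvrl1 (−1.43) and Tgfbr2 (−1.31), and 1 higher, the integrin subunit Itgb6 (6.64). These counts moved when 1 animal was left out. Without KO1, KO2, WT1 and WT2 in turn, the calls numbered 21, 13, 9 and 12 for the other matricellular genes, 11, 5, 6 and 5 for proteases and inhibitors, 7, 4, 3 and 9 for activated fibroblast genes, and 4, 1, 3 and 3 for the TGF-beta system. Receptors of the 10 proteins had 4 of 18 lower, Lrp1 (−2.06), Cd44 (−1.25), Sdc4 (−1.21) and Ptprb (−0.97), and 1 higher, Fzd6 (2.42), with 5, 1, 0 and 1 calls in the same order of animals left out and 2 without the animal as a block. Of all 17509 genes, 5.92% were lower and 8.33% higher. As for the 10 genes, the part of cell make-up in these calls was not tested, and fraction and chip cannot be told apart. With plain library totals in place of TMM the calls were 21 for the other matricellular genes, 19 for proteases, 19 for activated fibroblast genes, 10 for the TGF-beta system and 6 for receptors. Calls over all 17509 genes were then 3963, of which 2895 were lower. With 1 animal left out, the calls over all genes ran from 1252 to 2654.

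Between KO and WT, 0 genes of any companion list passed edgeR's test in NCM wells or in any of the 3 classes. Both KO animals lay above both WT animals for 10 of 26 activated fibroblast genes and below for 1, and in fibroblast-like wells for 15 and 1, with medians of 0.30 and 0.46. Over all tested genes the shares were 26.9% above and 18.3% below in NCM wells and 25.1% and 17.9% in fibroblast-like wells. For the TGF-beta system it was 10 above and 2 below of 22 in NCM wells, and 11 and 1 of 22 in fibroblast-like wells, with medians of 0.43 and 0.73. Receptors had 7 above and 2 below of 18 (median 0.11), and proteases and inhibitors 9 and 2 of 26 (median 0.26). The other matricellular genes had 8 above and 5 below of 29 and a median of 0.05, and in fibroblast-like wells 9 and 4 (median −0.04). In fibroblast-like wells receptors had 7 and 4 of 18 and proteases 12 and 0 of 24.

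In endothelial-like wells, against 25.6% above and 15.6% below of all tested genes, the other matricellular genes had 16 above and 2 below of 28 tested (median 0.81). Activated fibroblast genes had 13 and 1 of 24 (median 0.79), proteases 13 and 1 of 24 (0.71), receptors 6 and 2 of 16 (0.16) and the TGF-beta system 3 and 2 of 21 (−0.10). In macrophage-like wells, against 18.4% and 21.8%, the counts were 14 and 3 of 26 (0.56), 14 and 1 of 25 (0.77), 10 and 3 of 24 (0.96), 6 and 1 of 15 (0.31) and 5 and 3 of 21 (0.09) in the same order of lists. Fibroblast markers made up 0.193% and 0.260% of UMIs in macrophage-like wells of KO and 0.141% and 0.230% in WT, with 0 of 11 at zero. In endothelial-like wells they made up 0.505% and 0.737% in KO and 0.455% and 0.277% in WT. Their part in the counts of either class was not tested.

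Single genes of the lists were read in NCM wells. Dcn, one of the 2 most abundant genes of the lists, stood at 3288 and 2614 CPM in KO against 4654 and 5219 in WT, opposite in order to Postn and Tnc (log2 −0.91, SE 0.18, edgeR adjusted p = 0.339). DESeq2 called 3, 0, 2, 1 and 0 genes of the 5 lists in the order matricellular, TGF-beta, receptors, proteases and activated fibroblast. Those lists held 29, 22, 18, 26 and 26 tested genes. Over all genes DESeq2 called 579, with 17216 past the same filter on low counts. Serpinh1, the collagen chaperone, stood at 251 and 329 in KO against 177 and 99.7 in WT. Skil, a nuclear repressor of TGF-beta signalling, stood at 108 and 121 in KO against 189 and 192 in WT (log2 −0.89, edgeR adjusted p = 0.339). The other abundant genes reported here overlapped between the groups. Lgals1 stood at 4588 and 7475 in KO against 8663 and 6709 in WT, Cd63 at 1394 and 1815 against 2273 and 1814, and Cd36 at 1026 and 487 against 258 and 525. Timp2 stood at 298 and 228 in KO against 209 and 242 in WT, Col3a1 at 3162 and 3289 against 3342 and 1385, and Mfap5 at 1476 and 3028 against 4448 and 2824.

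The effect of genotype differed between classes, past the adjusted threshold in edgeR, for 4 list genes. Sparcl1 had log2 −3.29 in endothelial-like minus macrophage-like wells (7 genes or 0.0506% of 13840 lower and 2 or 0.0145% higher). In fibroblast-like minus endothelial-like wells it was Cd36, a thrombospondin 1 receptor (2.86), Timp4, a relative of Timp1 (3.26), and Mfap5 (−1.48), among 5 genes (0.034%) higher and 1 (0.00681%) lower of 14692. Cd36 and Timp4 are leading genes of the endothelial-like NCM cluster and Mfap5 of the fibroblast-like one, so these values are given as a description. Endothelial markers moved with them: they made up 0.190% and 0.127% of UMIs in fibroblast-like wells of KO against 0.0258% and 0.0474% in WT, and 1.05% and 0.751% in KO against 1.44% and 1.45% in WT in endothelial-like wells. In macrophage-like wells, the other side of the Sparcl1 difference, they made up 0.256% and 0.118% in KO against 0.0269% and 0.0360% in WT. The part of endothelial markers in the differences, that of Sparcl1 included, was not tested. In fibroblast-like minus macrophage-like wells 2 genes (0.0135% of 14850) passed, and no list gene did.

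Likeness was measured as Pearson's r of log2 levels over 37 sums of animal, fraction and class, among 8440 genes with at least 10 CPM. The sums share animals, chips and wells, so r is a description. Postn was most like the collagens Col3a1 (0.95), Col1a1 (0.94) and Col1a2 (0.93), and Cthrc1 like Col1a1 (0.92), Timp1 (0.92) and Srpx2 (0.91). Tnc was most like Postn (0.90), Lhfp (0.87) and Serpinh1 (0.86), and Ltbp2 like Snhg18 (0.89), Thbs2 (0.88) and Cthrc1 (0.87). Spp1 stood with the lysosomal protease gene Ctsb (0.94) and the macrophage genes Pf4 and Ms4a7 (0.92 each). Timp1 stood with Srpx2 (0.92), Cthrc1 (0.92) and Fstl1 (0.91). Thbs1 was most like Man2a1, Pik3r5 and Arrb2 (0.83 each), and Thbs4 like the collagen prolyl hydroxylase family genes P3h4 (0.76) and P3h3 (0.73) and Ddb1 (0.74). Tgfb1, with Mob1a, Per1 and Gm24447 (0.67 to 0.68), and Comp, with Eef1g, Sept2 and Rpl13a (0.63 to 0.64), had less close neighbours.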

How the data were processed

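The deposited values are UMI counts per gene and well, since each well's sum over genes equalled the UMI number in the authors' well report (4315 of 4315 wells). The submitters' processing notes name STAR 2.5.2b, featureCounts, Subread 1.4.6-p1 and the mm10 build, and the labels' protocols a Nextera XT library kit. No source used here gives the annotation release, the strand setting or the rule for collapsing UMIs. Animal and fraction come from the well reports, and replicate numbers only name chips.

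The 10 genes, the companion lists and the class rule were chosen with earlier results of these data known. Spike-in columns (70, with 4.98e-05% of UMIs) and 40 control wells were left out. Wells of at least 10000 UMIs and 300 genes were clustered with scanpy 1.11.5 and leidenalg 0.10.2 (2000 variable genes, 30 components, 15 neighbours, resolution 1.0), without the 10 genes and without mitochondrial and haemoglobin genes. A cluster was named when at least 3 markers were among its 30 leading genes, unless another class or red cell genes led it; leaving out haemoglobin genes and the red cell rule were chosen after the data were seen. Scrublet, per chip, marked 33 wells, which were kept except in an alternative.

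Counts were summed per animal (at least 20 wells per sum) and KO was set against WT with the quasi-likelihood test of edgeR 4.0.16 (R 4.3.3, limma 3.58.1), with TMM, filterByExpr and Benjamini-Hochberg adjustment over all tested genes. The p-values rest on 2 animals per genotype. CM and NCM wells were compared with the animal as a block, as each animal gave both. DESeq2 1.42.0, other scalings, no filter, thinning to 5000 UMIs, mitochondrial limits, no doublet calls, and leaving out an animal or each gene's highest well were alternatives; the last, the 50% limit, leaving out unnamed clusters and the tests between classes were added after seeing the data. The code was tested on simulated data. Comparisons of CM classes were run and called 0 genes. Their folds of single genes are not given.

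The rule for names takes the 10 genes everywhere, the 2 most abundant genes of each list, list genes past the threshold (at most 6 each way) and the 3 nearest genes in likeness. One such abundant gene is not reported here. The ratio of Cthrc1 to Postn was picked after its values were seen. Shares before thinning carry exact Clopper-Pearson intervals of 95%, which cover counting error only.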

Additional observations from a re-analysis of the deposited data

Results flagged for a closer look

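The order of KO and WT for Thbs1, the TGF-beta-activating thrombospondin, was opposite in the sums of different NCM cell classes. In fibroblast-like wells both KO animals lay above both WT animals (290 and 201 CPM in KO against 65.1 and 136 in WT), and in macrophage-like wells both lay below (259 and 284 in KO against 479 and 323 in WT). The difference of the 2 effects was log2 1.87 (SE 0.66) with an unadjusted p of 0.0234 and an edgeR adjusted p of 0.989 over 14850 genes, so it did not pass. The effect in endothelial-like wells (157 and 144 in KO against 39.6 and 73.7 in WT) minus that in macrophage-like wells was log2 1.96 (SE 0.63; unadjusted p = 0.0120, edgeR adjusted p = 0.670), which did not pass either. That order was not seen in the median well or the share of wells: the median macrophage-like well had 50.5 and 116 CPM in KO against 34.8 and 26.0 in WT, and the share of macrophage-like wells with a Thbs1 UMI after thinning, 40.0% and 48.9% in KO against 48.6% and 35.1% in WT, overlapped. In macrophage-like wells, without each gene's highest well, the KO effect was −0.16 against −0.61 with it. Thinned shares of Thbs1-positive wells lay below those of neutrophil-like wells in KO1, KO2 and WT1 for the endothelial-like class. For the fibroblast-like class they did so in KO1 and WT1. The groups of 2 animals were too small to look for single samples far from the rest.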

How the results depend on the processing

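No paired analysis was possible because, for KO against WT, replicate numbers follow accession order only. For CM against NCM wells the animal is the block; with no replicate block 2661 genes were called (1605 higher and 1056 lower), against 2496 with it, 3963 with library totals alone and 1252 to 2654 with 1 animal left out (without KO2, WT1 and WT2 1252, 1360 and 1453). Comp in that comparison turned to log2 0.24 with no replicate block, and Spp1 to −0.37 with library totals. The interaction of fraction and genotype gave 0 calls in each fit.
For KO against WT the main calls were 0 everywhere. DESeq2 called 579 (NCM), 48 (CM), 362 (fibroblast-like NCM), 254 (endothelial-like NCM), 404 (macrophage-like NCM), 71 (cardiomyocyte-like CM), 34 (endothelial-like CM) and 53 (macrophage-like CM) genes. No filter on low counts gave 226, 47, 272, 169, 264, 91, 24 and 22 in that order. Thinning gave 19 in NCM wells and 4 in each NCM class, and macrophage-like NCM wells gave 2 with library totals and 2 without each gene's highest well. With 1 animal left out, where the lone animal is assumed to vary like the others, the calls were 0 to 1 (without WT1), 0 to 0, 0 to 2 (without WT2), 0 to 21 (without KO1 21, without KO2 13), 0 to 49 (without KO1 49, without KO2 13), 0 to 357 (without KO2), 0 to 29 (without KO1 5, without KO2 29) and 0 to 83 (without KO1 73, KO2 83, WT1 2).
Of 478 values of the 10 genes under other settings, 458 kept their direction and 12 became calls. With 1 animal left out, 208 of 236 kept it and 3 became calls. In NCM wells Cthrc1 turned to 0.095 when thinned. Thbs1 turned to −0.076 with no filter, −0.28 thinned, −0.095 without unnamed clusters and −0.021 with 8 sums fitted together. Timp1 turned to 0.031 with library totals, 0.36 thinned and 0.22 under 50% mitochondrial UMIs, and in fibroblast-like wells to 0.15, 0.19 and 0.20. Cthrc1 in endothelial-like wells turned to −0.25 under 50%. In CM wells Comp turned to −0.16 and Thbs4 to −0.68 under 30%, Cthrc1 to −0.0053 thinned, and Spp1 to 0.050 with library totals, 0.36 thinned and 0.37 without each gene's highest well. The share of Thbs1-positive wells, KO minus WT, was −0.754 points, 5.30 thinned and 0.159 at 3 or more UMIs.
With 1 animal left out, the log2 values that turned ran in NCM wells from −1.01 to 0.041 (Cthrc1), −0.12 to 0.12 (Thbs1), −0.33 to 0.80 (Thbs4) and −0.73 to 1.19 (Ltbp2). In CM wells they ran from −2.32 to 5.08 (Comp), −1.21 to 1.05 (Cthrc1), −2.20 to 0.58 (Spp1), −2.07 to 0.31 (Ltbp2), −1.45 to 1.17 (Tgfb1) and −0.30 to 1.39 (Timp1). In fibroblast-like wells they ran from −0.093 to 1.17 (Thbs4), −0.75 to 1.24 (Ltbp2) and −0.20 to 0.028 (Timp1), in endothelial-like wells from −0.39 to 1.20 (Cthrc1) and −2.21 to 1.57 (Tgfb1), and in macrophage-like wells from −0.17 to 0.97 (Timp1). Between CM and NCM wells they ran from −1.32 to 0.58 (Comp), −0.14 to 0.76 (Spp1) and −1.07 to 0.20 (Ltbp2). The cause of these changes was not tested. The 30% limit was not run in NCM wells, where KO1 had 18 such wells.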
